A study of Mus musculus with 8 samples.

Results

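Kinesins are the motor proteins that walk along or trim microtubules, and the array annotation names 38 genes of this family by a symbol that starts with Kif and a number, among 19935 genes tested. They were split into 11 kinesins listed as mitotic (Kif2c, Kif4, Kif11, Kif14, Kif15, Kif18a, Kif18b, Kif20a, Kif20b, Kif22 and Kif23) and 27 others, of which 1, Kif4-ps, is a pseudogene. The list does not hold every kinesin that can act in mitosis, Kif2a being an example among the others. A probe set was used only where the annotation gives it exactly 1 gene symbol. Where a kinesin had several such probe sets, as 6 did, 1 was chosen by its mean log2 intensity over the 8 arrays, the highest being kept. This mean level is the only measured value that entered the choice, and it is given below only as a description. The genotype difference did not choose the probe sets, but the split into mitotic and other kinesins was made with earlier results of these data known.

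The study compared the skin of mice in 2 genotypes on Affymetrix Mouse Gene 1.0 arrays, 4 arrays of Adam10 knockout and 4 arrays of Adam10 wild type, with 1 array for each sample. The protease Adam10 sits in the cell membrane and sheds the outer part of Notch receptors and other surface proteins. The knockouts carry the short form cKO in their titles, which the labels do not spell out. No source used here gives the promoter that drives the deletion, the strain, the age or the sex, and the material is called both skin tissue and primary skin cells.

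A kinesin joins a motor domain, which binds the microtubule and splits ATP, to a tail that decides what is moved. Most family members carry vesicles, organelles or ciliary proteins in cells that are not dividing, while a smaller set is made in the G2 phase and mitosis and builds the spindle, positions chromosomes or cleaves the cell. In normal epidermis cell division takes place mainly in the basal layer and in the hair follicle, which is where mitotic motors are known to be made.

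The mitotic motors belong to the genes that many cells switch on late in the cell cycle, and a short promoter element, the cell cycle homology element, is known to keep such genes silent in resting cells. Its usual letters TTTGAA were searched on both strands, together with CCAAT, the box bound by the factor NF-Y, in RefSeq start windows of build GRCm38.p6 that run from 250 bases before to 50 bases after each annotated start. In the kinesin windows no match of one motif shared a base with a match of the other. Of the 38 kinesins 31 were matched to a window by symbol, 10 of them mitotic; Kif5a, Kif5b, Kif13b, Kif19a, Kif20a, Kif21b and Kif4-ps had none. The windows below are those of mitotic kinesins that hold TTTGAA close to the start. That of Kif26b, which is not mitotic, holds it there too and is not shown. Each line gives 60 bases before the start and 40 from it on, 5′ to 3′ on the strand of the gene, and capitals mark TTTGAA and CCAAT or their reverse complements.
Kif11, chr19:37376322-37376421, plus strand: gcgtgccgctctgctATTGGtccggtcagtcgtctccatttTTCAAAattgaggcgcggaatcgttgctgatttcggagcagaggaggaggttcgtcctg
Kif15, chr9:122951021-122951120, plus strand: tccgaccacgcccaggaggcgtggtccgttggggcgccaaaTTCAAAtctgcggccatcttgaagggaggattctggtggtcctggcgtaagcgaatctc
Kif22, chr7:127042381-127042480, minus strand: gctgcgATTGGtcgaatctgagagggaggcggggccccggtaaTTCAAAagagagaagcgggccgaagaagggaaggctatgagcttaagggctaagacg
Kif4, chrX:100626005-100626104, plus strand: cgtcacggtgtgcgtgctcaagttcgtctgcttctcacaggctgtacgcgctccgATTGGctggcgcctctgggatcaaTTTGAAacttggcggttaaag
Kif18b, chr11:102925085-102925184, minus strand: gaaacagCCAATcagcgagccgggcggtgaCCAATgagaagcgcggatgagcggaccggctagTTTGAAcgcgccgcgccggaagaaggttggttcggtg
Kif23, chr9:61946760-61946859, minus strand: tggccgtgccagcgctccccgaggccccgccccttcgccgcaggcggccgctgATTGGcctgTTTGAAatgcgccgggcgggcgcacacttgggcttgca
Kif20b, chr19:34922298-34922397, plus strand: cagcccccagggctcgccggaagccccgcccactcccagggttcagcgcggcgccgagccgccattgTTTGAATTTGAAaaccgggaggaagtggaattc

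TTTGAA was found in 9 of the 10 mitotic windows. It was found in 3 of the 25 windows of 21 other kinesins (12%), in 14.8% of the 19175 windows of genes tested on the arrays and in 17.9% of all 32851 windows of the table. In 7 mitotic windows a match began within 25 bases of the start, against 1 window of the other kinesins (Kif26b) and 2.03% of the windows of tested genes. This distance was chosen after the positions had been seen. In Kif11 and Kif15 the match began 19 bases before the start and in Kif22 17 bases before it, and in Kif20b there were 2 matches end to end. CCAAT was found in 6 of 10 mitotic windows, 9 of 25 windows of other kinesins (36%) and 37.4% of all windows. The window of Kif18a held neither motif, and neither did those of Kif13a, Kif2a and Kif9, the other kinesins that rose. These are matches of letters, and nothing was measured here on what binds them.

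**Figure D1:**
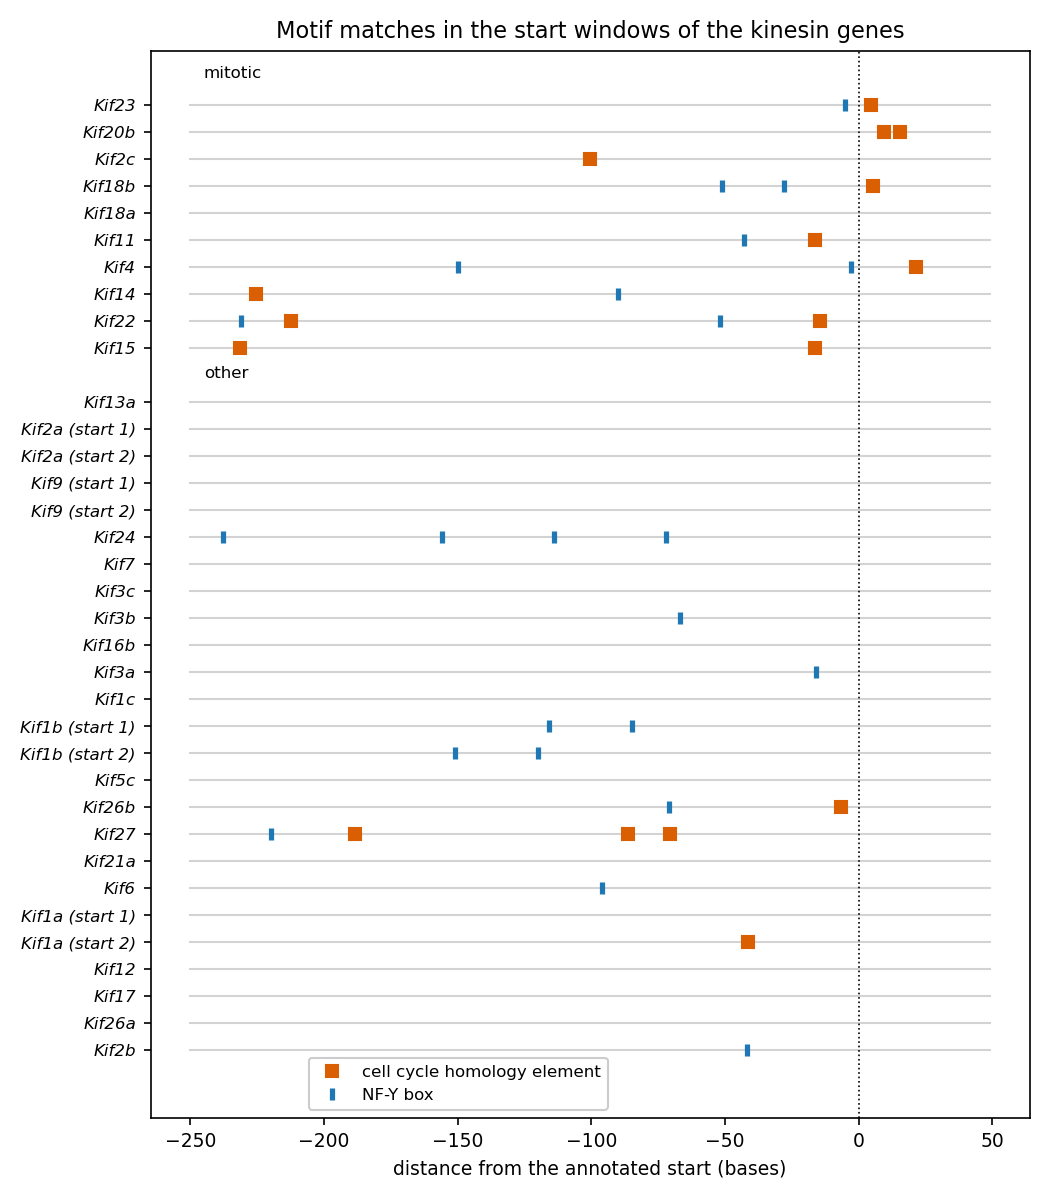
Positions of motif matches in the RefSeq start windows of 31 kinesins, with the distance from the annotated start in bases on the x axis (0 is the start) and 1 row per window, mitotic kinesins above the others. Squares mark the cell cycle homology element and ticks the NF-Y box, on either strand; in 7 of 10 mitotic windows a square lies within 25 bases of the start.

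Before the kinesins, the state of the arrays has to be given. Adam10 itself averaged 6.92 ± 0.12 on the log2 scale in knockout and 7.28 ± 0.15 in wild type (SD, n = 4 each); all 4 knockout arrays lay below all wild-type arrays (exact two-sided permutation p = 0.0286, the smallest that 70 assignments allow), and it missed the threshold across all genes (limma adjusted p = 0.0641). Wild-type array 4 stood apart in markers of muscle, dermis, fat and vessels. Array 3 did so to a smaller extent in those of muscle, dermis and vessels. The summed intensity of 14 skeletal muscle markers was 284 to 330 on the knockout arrays and 322 to 8797 on the wild-type arrays. The sum of 8 dermal fibroblast markers was 1270 to 1416 in knockout and 1077 to 7465 in wild type. That of 9 adipocyte markers was 88.0 to 103 in knockout and 95.7 to 1964 in wild type, and that of 5 endothelial markers 36.2 to 40.3 in knockout and 35.1 to 299 in wild type. Of the dermal markers, Dcn (0.48) and Fbln1 (-0.017) did not share the large negative differences of the other 6. The median difference of the 8 dermal markers was -1.84 with all arrays and -0.099 without wild-type arrays 3 and 4. The calls and lists below are also given without wild-type arrays 3 and 4, a fit in which 2.96% of all genes rose and 1.68% fell. The basal keratinocyte markers Krt5 and Krt14, which define epidermis, had mean log2 intensities of 12.2 and 11.7 over the 8 arrays.

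All 11 mitotic kinesins rose in the knockout skin (limma with Benjamini-Hochberg adjustment over all 19935 genes, adjusted p under 0.05). Of all genes, 6.41% rose by that rule and 8.75% changed in either direction, and among the 9968 genes of at least median level 12% rose. The median log2 difference of the 11 was 0.77, or 1.70-fold, with a range of 0.48 to 0.86, against a median of 0.0027 for all genes and 0.11 for genes of at least median level. In 10 of the 11 every knockout array lay above every wild-type array, which was so for 12.2% of all genes. The count fell to 7 without knockout array 1, 6 without knockout array 2, 6 without knockout array 3, 7 without wild-type array 2 and 7 without wild-type array 3. The share of all genes that rose fell in these fits too, to 3.42%, 2.14%, 2.96%, 3.72% and 2.74% in the same order. Without both wild-type arrays 3 and 4, 7 passed, against 2.96% of all genes that rose, and the median was 0.70. In bulk RNA of skin material, more dividing cells and more transcript per dividing cell cannot be told apart. Markers of cell types that also moved with the genotype are given further below.

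**Figure D2:**
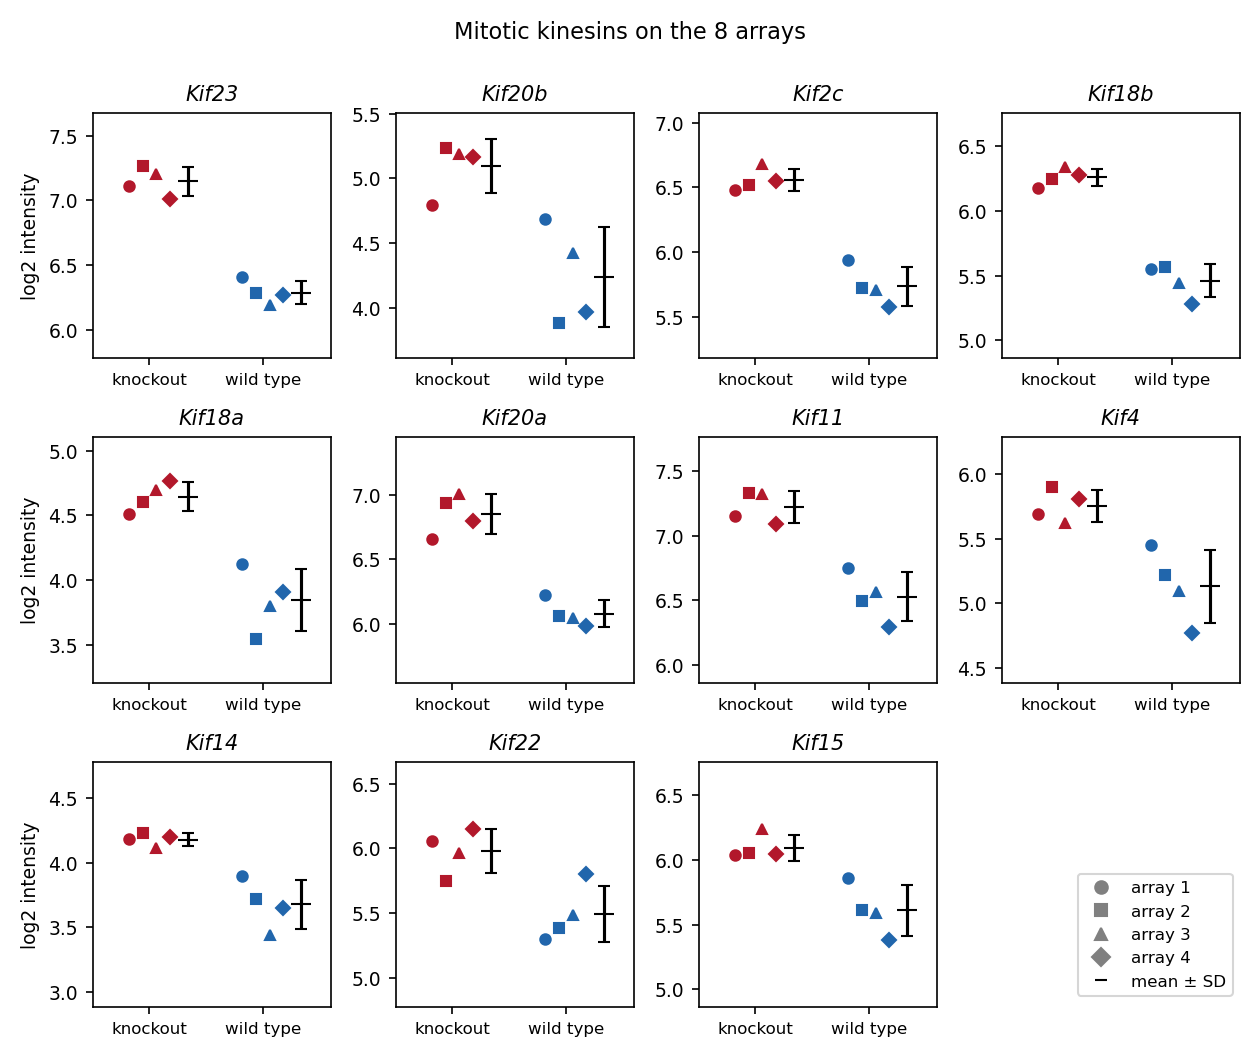
Log2 intensity of the 11 mitotic kinesins on each array, knockout left and wild type right in each panel, with the mean ± SD of 4 arrays beside the points and a y axis of the same length in every panel. The groups are apart in every panel but Kif22, where knockout array 2 (5.75) lies below wild-type array 4 (5.80).

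The motors that push the spindle poles apart both rose. Kif11 (Eg5), the tetrameric motor that slides antiparallel microtubules and makes the spindle bipolar, had log2 intensities of 7.15, 7.33, 7.32 and 7.09 on knockout arrays 1 to 4, against 6.75, 6.50, 6.57 and 6.30 on wild-type arrays 1 to 4. The groups did not overlap, and wild-type array 1 came closest to the knockouts. The difference was 0.70 (SE 0.12, adjusted p = 0.00729). Kif15, which can keep spindles bipolar when Kif11 is weakened, had 6.04, 6.05, 6.24 and 6.04 in knockout, against 5.86, 5.61, 5.59 and 5.38 in wild type. Its 4 knockout values again lay above the wild-type ones, with a difference of 0.48 (SE 0.11, adjusted p = 0.0293). The difference between the 2 genes was not tested.

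Motors that shorten microtubule ends or hold chromosomes at the spindle equator were raised by similar amounts. Kif2c (MCAK), a depolymerase that releases wrong attachments of chromosomes, had 6.48, 6.52, 6.68 and 6.55 in knockout, against 5.94, 5.72, 5.70 and 5.58 in wild type. The difference was 0.82 (SE 0.10, adjusted p = 0.00248), and the gap between the groups was wider than the spread within either. Kif18a, which damps the swinging of chromosomes before they separate, had 4.51, 4.61, 4.69 and 4.77 in knockout, against 4.13, 3.54, 3.80 and 3.91 in wild type (difference 0.80, SE 0.13). Kif18b, its relative at the tips of astral microtubules, had 6.17, 6.24, 6.34 and 6.28 in knockout, against 5.55, 5.56, 5.44 and 5.28 in wild type (difference 0.80, SE 0.096). Both kinesin-8 genes of the mitotic set thus rose 1.74-fold with no overlap, with adjusted p-values of 0.00614 for Kif18a and 0.00239 for Kif18b. Kif19a, the kinesin-8 gene outside that set, overlapped and did not pass (difference -0.090, adjusted p = 0.60).

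The chromokinesins, which bind chromosome arms, stood lower in the order of differences. Kif4, needed for chromosome condensation and for the length of the spindle midzone, had 5.69, 5.90, 5.62 and 5.81 in knockout, against 5.45, 5.22, 5.09 and 4.77 in wild type. The difference was 0.62 (SE 0.14, adjusted p = 0.0255). Kif4 lies on the X chromosome in the RefSeq annotation. The sex of the samples is not given, and its part in the rise of Kif4 was not tested. With the mean of 3 genes of the Y chromosome added to the fit the Kif4 difference was 0.59 (adjusted p = 0.0433). That fit called 9 of the 11 mitotic kinesins, without Kif15 (adjusted p = 0.0522) and Kif22 (0.0789), and did not call Kif2a (0.0526). Kif22 (Kid), which pushes chromosome arms toward the equator, had 6.05, 5.75, 5.96 and 6.15 in knockout, against 5.30, 5.38, 5.49 and 5.80 in wild type. It was the only mitotic kinesin whose groups overlapped, and the only one that was highest on wild-type array 4 within its group (difference 0.49, SE 0.13, adjusted p = 0.0479).

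Motors of the midzone and of cytokinesis held the largest and some of the smaller rises. Kif23 (MKLP1), the motor of the centralspindlin complex, had 7.11, 7.27, 7.20 and 7.01 in knockout, against 6.41, 6.28, 6.19 and 6.26 in wild type. Its difference of 0.86 (SE 0.096, 1.82-fold, adjusted p = 0.00162) was the largest of the 11. Kif20a (MKLP2), which carries the chromosomal passenger complex to the midzone, had 6.66, 6.93, 7.00 and 6.79 in knockout, against 6.23, 6.06, 6.04 and 5.98 in wild type (difference 0.77, SE 0.11, adjusted p = 0.00359). Both stood apart from wild type on every array.

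Kif20b, a motor of late cytokinesis, had 4.79, 5.24, 5.19 and 5.17 in knockout, against 4.69, 3.88, 4.42 and 3.96 in wild type. Its difference was as large as that of Kif23 (0.86), but with the widest spread of the 11 (SE 0.18, adjusted p = 0.0203), and knockout array 1 lay only just above wild-type array 1. Kif14, which works with citron kinase in abscission, had 4.19, 4.23, 4.11 and 4.20 in knockout, against 3.90, 3.72, 3.44 and 3.65 in wild type (difference 0.50, SE 0.11, adjusted p = 0.0211). Kif14 has a second, dimmer probe set, at 2.38 ± 0.13 in knockout and 2.31 ± 0.12 in wild type (SD, n = 4 each), which did not pass (difference 0.070, limma adjusted p = 0.714 over all probe sets with 1 symbol).

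The 11 calls did not rest equally on all arrays. Kif2c, Kif11, Kif18a, Kif18b, Kif20a and Kif23 passed in each of the 8 fits that left out 1 array, with adjusted p-values of at most 0.033. Kif20b lost its call without knockout array 2 or 3 or wild-type array 2 (adjusted p up to 0.0746), and Kif14 without knockout array 1, 2 or 3 or wild-type array 3 (up to 0.0746). Kif15 lost it without knockout array 1, 2 or 3 or wild-type array 2 or 3 (up to 0.0838), and Kif4 without any 1 knockout array or wild-type array 2 or 3 (up to 0.0896). Kif22 lost it without any 1 of 7 arrays (up to 0.118) and passed without wild-type array 4. Kif4, Kif14, Kif15 and Kif20b did not pass without both wild-type arrays 3 and 4, while Kif22 did (0.64, adjusted p = 0.0309).

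The wild-type arrays were ordered alike for most mitotic kinesins, the knockout arrays less so. Wild-type array 1 was the highest wild-type array for 9 of the 11 and wild-type array 4 the lowest for 6. Among the knockouts, array 1 was the lowest for 6 and the highest for 0, while array 2 was the highest for 5, array 3 for 4 and array 4 for 2. The median deviation of the 11 genes from their means over all arrays was 0.26, 0.39, 0.45 and 0.36 on knockout arrays 1 to 4, against -0.12, -0.38, -0.42 and -0.48 on wild-type arrays 1 to 4. Wild-type array 1 thus lay between the other wild-type arrays and the knockouts.

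Among the 27 other kinesins 3 rose and 0 fell, and the remaining 24 did not pass in limma. At an unadjusted p under 0.05, 3 were higher and 1 was lower, against 16.3% and 8.8% of all genes. Their median difference was -0.0063, and -0.0026 without the pseudogene, close to the 0.0027 of all genes. Of the 27, 13 had a difference above 0, as did 50.4% of all genes. The share that rose, 3 of 27, compares with the 6.41% of all genes given above, and for falls the share of all genes was 2.34%. The knockout arrays lay wholly above wild type for 5 of the 27 (Kif13a, Kif2a, Kif9, Kif3b and Kif3c), against 12.2% of all genes, and wholly below for 0, against 5.86%. No test set the mitotic kinesins as a group against the others. In the comparison of each gene, the lowest difference of a mitotic kinesin (0.48) lay above those of all other kinesins except Kif13a.

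**Figure D3:**
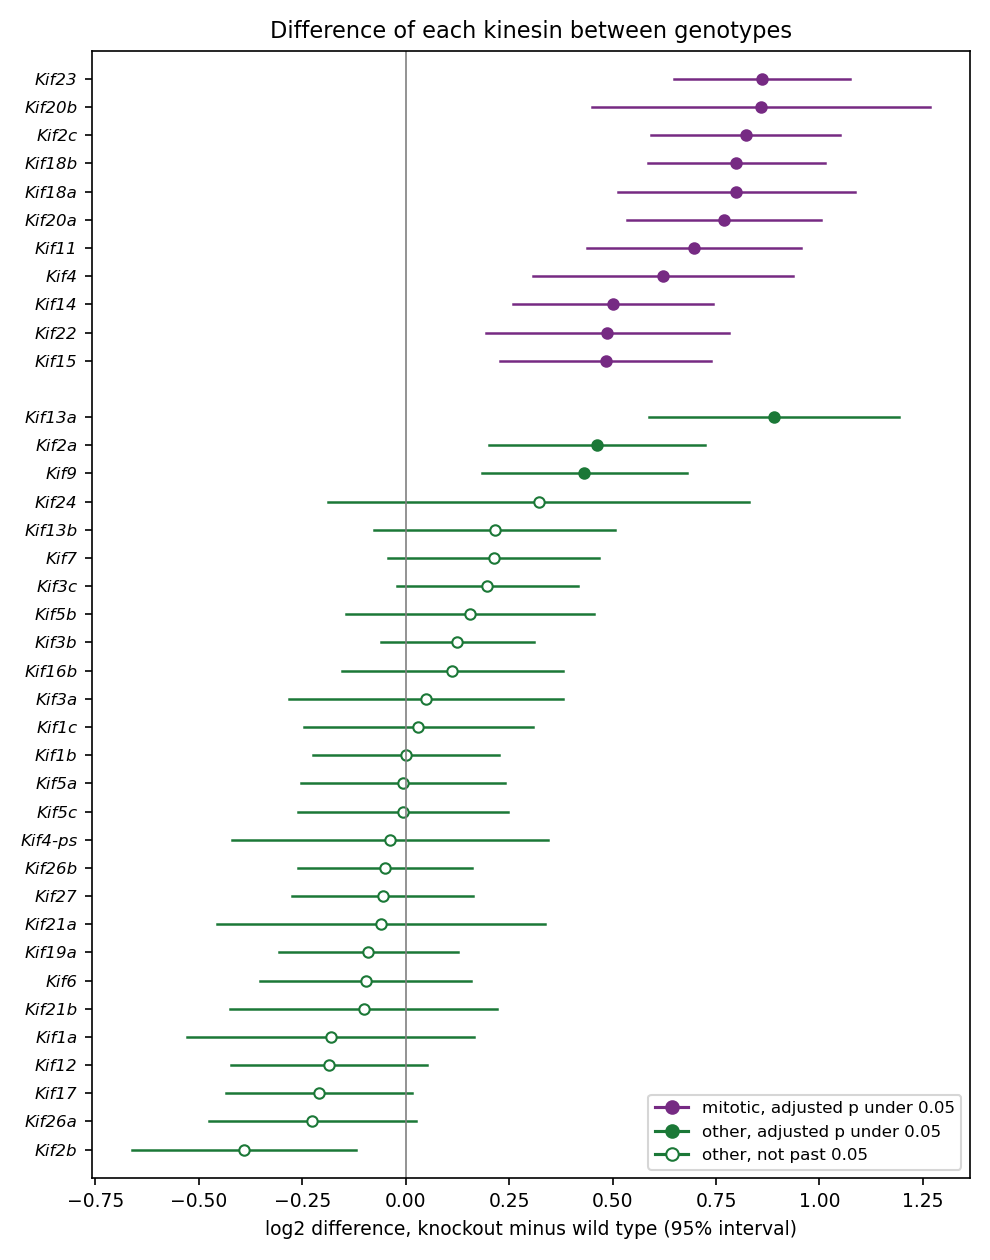
Log2 difference between knockout and wild type for the 38 kinesins, 1 row per gene, with the 95% interval of the limma fit as a line; filled points passed an adjusted p of 0.05 and open points did not. The 11 mitotic kinesins lie between 0.48 and 0.86, and 24 of the 27 others are open points between -0.39 and 0.32.

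Kif13a was the member outside the mitotic set that rose most. It carries recycling endosomes to the cell periphery and, in melanocytes, brings pigment enzymes to the forming melanosome. It had 6.92, 7.02, 6.68 and 7.02 in knockout, against 6.26, 6.03, 6.10 and 5.68 in wild type, a difference of 0.89 (SE 0.14, adjusted p = 0.00521). It passed in each of the 8 fits that left out 1 array and without wild-type arrays 3 and 4 (0.76, adjusted p = 0.0172). Of 6 melanocyte markers 3 rose (Mlana, Pmel and Mitf), against 6.41% of all genes. The summed intensity of the 6 was 536 to 857 on knockout arrays and 347 to 522 on wild-type arrays. Their part in the rise of Kif13a was not tested. The lowest log2 value of any of the 6 on any array was 3.65. Without wild-type arrays 3 and 4 the same 3 melanocyte markers passed, while 2.96% of all genes rose.

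Kif2a and Kif9 rose by less and less firmly. Kif2a, a depolymerase of the same kinesin-13 class as Kif2c that acts in neurites and cilia and also at spindle poles, had 6.09, 5.94, 5.93 and 5.97 in knockout, against 5.83, 5.34, 5.52 and 5.40 in wild type. Its difference of 0.46 (SE 0.12, adjusted p = 0.0381) lost its call without any 1 array except wild-type array 1 (adjusted p up to 0.104). Kif9, a motor of motile cilia and sperm tails, had 4.09, 4.41, 4.04 and 4.13 in knockout, against 3.63, 3.87, 3.80 and 3.63 in wild type (difference 0.43, SE 0.11, adjusted p = 0.0407). It lost its call whichever array was left out (adjusted p 0.0561 to 0.115). Of 7 markers of motile ciliated cells 0 rose, against 6.41% of all genes, and 0 at an unadjusted p under 0.05, against 16.3%. All 7 lay below the median level of all genes, with a lowest log2 value of 1.37. Their part in the rise of Kif9 was not tested. Foxj1, the regulator of motile cilia, fell by 0.36 (limma adjusted p = 0.0454, and 0.235 without wild-type arrays 3 and 4). Neither Kif2a nor Kif9 passed without wild-type arrays 3 and 4 (adjusted p = 0.165 and 0.14).

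The long-distance transport motors of kinesin-1 did not pass. Kif5b, the kinesin-1 heavy chain of most tissues, had 7.71, 8.01, 7.67 and 7.73 in knockout, against 7.88, 7.78, 7.41 and 7.42 in wild type. The groups overlapped, and the difference was 0.15 with a 95% interval of -0.15 to 0.45. It turned to -0.053 without wild-type arrays 3 and 4 and to -0.015 with the mean of the muscle markers in the fit, and was 0.079 without knockout array 2. Kif5a and Kif5c, the neuronal heavy chains, averaged 3.36 ± 0.15 and 2.77 ± 0.21 in knockout and 3.37 ± 0.14 and 2.77 ± 0.055 in wild type (SD, n = 4 each). Both lay below the median level of all genes (4.45).

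Kinesin-2, whose Kif3a and Kif3b subunits drive transport into primary cilia, also gave 0 calls among 4 members, and 0 at an unadjusted p under 0.05. Kif3a had 5.04, 5.38, 5.09 and 5.70 in knockout, against 5.38, 5.23, 5.33 and 5.08 in wild type, with a difference of 0.049 (95% interval -0.28 to 0.38) that turned to -0.083 without knockout array 4. Kif3b had 5.89, 5.86, 5.86 and 5.94 in knockout, against 5.78, 5.77, 5.83 and 5.68 in wild type. Its groups did not overlap, yet the difference was 0.12 (95% interval -0.061 to 0.31) and the adjusted p = 0.38. Kif3c likewise did not overlap (difference 0.20, adjusted p = 0.244), and Kif17, a neuronal and sensory cilium motor, differed by -0.21 (adjusted p = 0.229).

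Of the 6 measured kinesin-3 motors Kif13a was the 1 that passed. Kif1b, which carries mitochondria and synaptic vesicle precursors, had 6.41, 6.33, 6.29 and 6.37 in knockout, against 6.48, 6.39, 6.40 and 6.12 in wild type. Its difference of 0.0011 (95% interval -0.22 to 0.23) was the nearest to 0 of all 38. Kif13b, the closest relative of Kif13a, had 5.89, 5.76, 5.75 and 6.10 in knockout, against 5.81, 5.80, 5.68 and 5.35 in wild type. The groups overlapped (difference 0.21, 95% interval -0.076 to 0.51), and it did not pass (adjusted p = 0.334). Without wild-type arrays 3 and 4 its difference was 0.068. Kif16b, a motor of early endosomes, and Kif1c differed by 0.11 and 0.030, and the neuronal Kif1a by -0.18.

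The other members gave 0 further calls. The largest differences that missed the threshold were those of Kif24 (0.32, 95% interval -0.19 to 0.83), a kinesin-13 of the centriole that restrains cilium growth, and, below 0, of Kif2b. Leaving out knockout array 4 gave a Kif24 difference of 0.18, leaving out wild-type array 1 gave 0.50 and leaving out wild-type array 4 gave 0.13. With both wild-type arrays 3 and 4 left out it was 0.10. Kif2b, of the same kinesin-13 class as Kif2c, is counted among the others by the list used here. It had 2.38, 2.20, 2.55 and 2.11 in knockout, against 2.48, 2.76, 2.79 and 2.78 in wild type. Its difference was -0.39 (SE 0.12, adjusted p = 0.0749). Leaving out wild-type array 1 gave -0.47 and a call (adjusted p = 0.044), but its level lay below the 25th percentile of all genes (2.95).

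Kif7, a regulator of Hedgehog signalling at the tip of the cilium, averaged 5.49 ± 0.21 in knockout and 5.27 ± 0.077 in wild type (SD, n = 4 each). Its difference of 0.21 (adjusted p = 0.28) turned to -0.045 on its other probe set, which has a mean level of 5.38 as well. Kif26a, which lacks motor activity, differed by -0.23 (adjusted p = 0.244). Kif21a, Kif21b, Kif27, Kif19a, Kif6, Kif12 and Kif26b lay between -0.19 and -0.050. A second Kif26b probe set, at a mean level of 3.75 against 3.87 for the one kept, gave -0.42. That is further from 0 than Kif2b (-0.39), and it did not pass (limma adjusted p = 0.0832 over all probe sets with 1 symbol). The pseudogene Kif4-ps, whose probes may also take up Kif4 transcripts, averaged 2.38 ± 0.32 in knockout and 2.41 ± 0.24 in wild type. Its difference was -0.038, and 0.18 on its other probe set (limma adjusted p = 0.714 over all probe sets with 1 symbol). The kept probe set lay below the 25th percentile of all genes, so whether it takes up Kif4 transcripts cannot be told. Of the 24 kinesins that did not pass, 8 changed sign when some 1 array was left out and 5 without wild-type arrays 3 and 4.

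Kinesins with other symbols and the proteins that work with the motors were measured as well. Cenpe, the kinesin that carries chromosomes along microtubules to the equator, had 5.10, 5.36, 5.11 and 5.42 in knockout, against 4.69, 4.03, 4.47 and 4.35 in wild type (difference 0.86, SE 0.15, adjusted p = 0.00781). It also passed without wild-type arrays 3 and 4 (0.88, adjusted p = 0.0293). Of the minus-end motors Kifc2 and Kifc3 0 passed in limma, and Kifc3 was higher at an unadjusted p under 0.05. Kifc1 and Kifc5b, listed with Cenpe as mitotic, had no value among the genes tested. Among 15 spindle and midzone partners of the mitotic kinesins 11 rose and 0 fell, against 6.41% and 2.34% of all genes. Their median was 0.54, and 15 of 15 lay above 0, against 50.4% of all genes. The largest were Anln (1.06), the scaffold of the cleavage furrow, Ect2 (0.93), which switches on RhoA there, and Prc1 (0.76), the bundler of midzone microtubules to which Kif4 binds. Without wild-type arrays 3 and 4, 8 of the 15 passed, these 3 among them, and the median was 0.52, while 2.96% of all genes rose. With all arrays, Birc5, Cdca8, Cit and Mapre1 were the partners that did not pass.

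Of 11 measured proliferation markers 8 rose and 0 fell, against 6.41% and 2.34% of all genes, with a median of 0.51. Bub1b (0.57) and Cdc20 (0.54) of the spindle checkpoint and the cyclin Ccna2 (0.53) were the largest that passed. Mki67 had the largest difference of the list (0.58) but did not pass (adjusted p = 0.0585), and neither did Cdk1 (0.0747) or Ccnb2 (0.0881). Without wild-type arrays 3 and 4 the count was 3 (Bub1, Bub1b and Ccna2) and the median 0.42, and Cdc20 missed the threshold (0.57, adjusted p = 0.0655). Among 12 kinesin light chains, adaptors and cargo linkers 1 rose, Trak2 (0.40, adjusted p = 0.0432), the adaptor that ties kinesin-1 to mitochondria, against 6.41% of all genes, and the list median was 0.11. Among 16 subunits of cytoplasmic dynein and dynactin 0 rose in limma, 4 were higher at an unadjusted p under 0.05 (16.3% of all genes were), and the light chain Dynlt3 fell by 0.39 (adjusted p = 0.0304), with a list median of 0.11. Both transport medians lay close to that of genes of at least median level. Neither Trak2 (adjusted p = 0.0891) nor Dynlt3 (0.0991) passed without wild-type arrays 3 and 4.

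**Figure D4:**
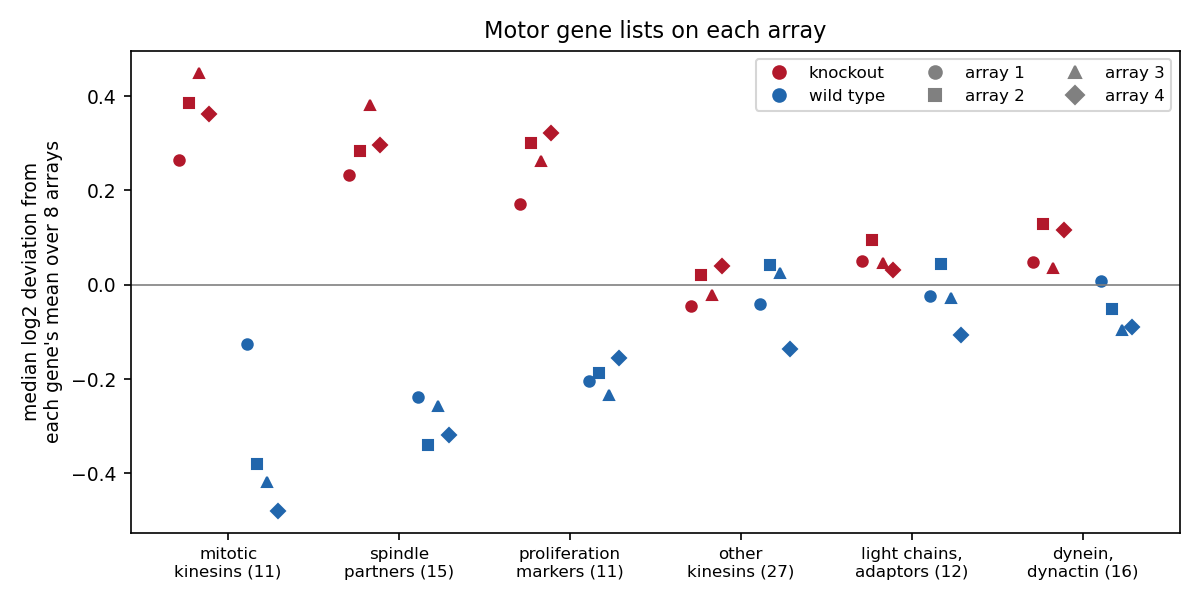
Median log2 deviation from each gene's mean over the 8 arrays, for 6 lists with the number of genes in brackets; each point is 1 array, knockout left and wild type right within a list. For the mitotic kinesins, their spindle partners and the proliferation markers the knockout arrays (0.17 to 0.45) lie above the wild-type arrays (-0.48 to -0.12), while for the other kinesins the arrays overlap.

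Markers of several cell types moved with the genotype beside these genes. Of 8 basal keratinocyte markers 7 rose, against 6.41% of all genes, and Trp63 did not pass, with a list median of 0.91. Their summed intensity was 13130 to 14870 on knockout arrays and 7703 to 10470 on wild-type arrays, and the lowest log2 value of any of them was 6.04. Of 7 macrophage markers 5 fell, against 2.34% of all genes, with sums of 151 to 211 in knockout and 326 to 576 in wild type. Without wild-type arrays 3 and 4, 4 of the basal markers rose (Col17a1, Itga3, Itga6 and Itgb4) with a median of 0.71, and 5 of the macrophage markers fell. In that fit 2.96% of all genes rose and 1.68% fell. The part of these cell types in the rise of the mitotic kinesins was not tested. For muscle, the median deviation of the markers was 1.22 and 3.69 on wild-type arrays 3 and 4, and -1.01 to -0.64 on the other arrays. A fit with the mean of the muscle markers thus cannot part muscle from those 2 arrays. In that fit the mitotic median was 0.70 and 7 of the 11 passed, against 4.31% of all genes that rose. Of the other kinesins Kif13a passed. The part of muscle was not tested either.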

How the data were processed

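RNA of mouse skin was hybridised to 8 Affymetrix Mouse Gene 1.0 arrays. The authors deposited 1 intensity per probe set and array (35519 probe sets), made with RMA per the submitters' processing notes; its version and settings are not stated there. Values ran from 0.817 to 11173, with array medians of 13.3 to 15.1, so they were read as linear, and log2 was taken with no pseudocount. Arrays give no depth, and their number limits the precision.

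Symbols came from the platform annotation, and all 38 kinesins matched RefSeq (GRCm38.p6) by Entrez identifier. One probe set per gene was kept, that with the highest mean, which left 19935 genes without a filter on dim ones. Knockout minus wild type was fitted with limma 3.58.1 in R 4.3.3 (lmFit, eBayes, two-sided). Adjustment was by Benjamini-Hochberg across the 19935 genes, at a threshold of 0.05. Intervals are 95%. The labels do not say that each sample is a separate animal, so p-values measure the spread between these samples, which may be technical. Replicates are numbered in accession order.

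Named genes are Adam10, every mitotic kinesin, every other kinesin that passed, the 3 highest and 3 lowest of the rest, and Kif5b, Kif3a, Kif1b and Kif13b, with up to 3 members a direction of each pathway list; further kinesins and markers are named to account for each member. Members, lists, markers and alternatives were chosen with earlier results of these data known. Start windows were taken from RefSeq and matched by symbol.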

Additional observations from a re-analysis of the deposited data

Results flagged for a closer look

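Of 76 groups of 4 arrays (38 kinesins in each genotype), 7 held an array far from the other 3 by Dixon's criterion at 95%, where chance gives about 1 in 20. Among the mitotic kinesins, Kif20b stood at 4.79 on knockout array 1 while the other knockouts lay at 5.17 to 5.24, and Kif15 at 6.24 on knockout array 3 while the others lay at 6.04 to 6.05. Kif21a, a motor that slows microtubule growth, stood at 6.70 on wild-type array 4 with the other wild-type arrays at 7.19 to 7.28. Kif12 stood at 3.83 on wild-type array 2 with the others at 3.46 to 3.50. Kif17 was at 3.48 on knockout array 4 with the others at 3.66 to 3.69, and at 3.63 on wild-type array 1 with the others at 3.88 to 3.92. Kif2b stood at 2.48 on wild-type array 1 with the others at 2.76 to 2.79.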

How the results depend on the processing

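The direction of all 11 mitotic kinesins was kept in every alternative in which they were tested. No paired analysis was possible because the labels give the groups no shared replicate numbers. With 1 array left out, 587 to 1997 genes passed, 426 to 1417 higher and 161 to 647 lower; 6 to 11 mitotic kinesins rose with a median of 0.699 to 0.828, and 1 to 2 other kinesins rose and 0 to 1 fell with a median of -0.0522 to 0.0215. Adam10 stayed between -0.43 and -0.32. At a threshold of 0.01, 478 genes passed (350 higher, 128 lower), with 6 mitotic and 1 other kinesin higher. At 0.10, 2958 passed (2060 higher, 898 lower), with Kif2b as 1 kinesin lower. Array weights gave 3621 (2405 and 1216), again with 1 lower. Without wild-type arrays 3 and 4, 925 passed (591 higher), with 7 mitotic and 1 other kinesin higher, and the muscle covariate gave the same 2 counts, 7 and 1. The lists of other genes were refitted without wild-type arrays 3 and 4 as an alternative chosen after seeing the data. Median centring gave 2739 (2453 higher, 286 lower) and moved the median of all genes to 0.105; relative to it the mitotic median was 0.766 and the other kinesins' median of 0.0958 was -0.009. Higher genes were 73.2% of calls, 63.0% after quantile normalization (843 higher), 56.9% after cyclic loess (769 higher) and 89.6% after median centring. Kif15 and Kif22 lost their calls after quantile normalization and cyclic loess, where 9 mitotic kinesins rose. Log2 of the value plus 16, which shrinks low values by construction, gave a mitotic median of 0.519. Above the median level, where 13 other kinesins were tested, their median was 0.125 beside 0.115 for all genes. Adam10 passed at -0.46 after quantile normalization, -0.49 after cyclic loess, -0.36 with either filter on dim genes, the trended prior or a threshold of 0.10, and -0.32 with 16 added. Of the values for single kinesins under all alternatives, 781 kept their side of the threshold, 70 lost it and 3 gained it. Only the 14 kinesins that passed with all arrays could lose a call, so the 70 losses all fell on them.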

Other observations

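Among the other kinesins, wild-type array 4 was the lowest wild-type array for 13 of the 27 and the highest for 2. Kif21a (6.70), Kif1c (7.39), Kif1b (6.12) and Kif13b (5.35) were all at their lowest wild-type value there. Knockout array 4 was the highest knockout array for 8 of the 27 and the lowest for 7; it was highest for, among others, Kif21a (7.47), Kif3a (5.70), Kif7 (5.79) and Kif13b (6.10). These genes were picked after their values were seen.

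Tubb3, a beta-tubulin kept as a neuron marker, had log2 intensities of 4.33, 4.11, 4.08 and 4.41 in knockout, against 3.18, 3.29, 3.56 and 3.17 in wild type. It rose by 0.93 (SE 0.12, limma adjusted p = 0.00291), while the other 6 neuron markers did not pass and the list median was -0.019. Tubb3 passed without wild-type arrays 3 and 4 as well (1.00, adjusted p = 0.00615). The neuronal kinesins Kif5a, Kif5c and Kif1a did not pass either.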
